A study of Sus scrofa with 6 samples.

Results

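The genes described here encode secreted and membrane proteases, lysosomal cathepsins and the inhibitors that restrain them, in clones of pig (Sus scrofa) keratinocytes from the surface of the eye. The 52 genes were those whose array symbol belongs to the MMP, ADAM, TIMP, KLK or SERPIN families, together with PLAU, PLAT and the cathepsins named CTS plus one letter, out of 6765 genes with a probe set of their own. Each gene was represented by its brightest probe set, as the mean over the 6 arrays. By family and known function 32 were counted as enzymes, 15 as inhibitors and 5 as family members that are neither (ADAM2, which has no protease activity, the hormone carriers SERPINA6 and SERPINA7, the secreted factor SERPINF1 and the collagen chaperone SERPINH1). The other serpins, SERPINB11 among them, were counted as inhibitors by family. Whether each of them inhibits a protease in the pig was not tested.

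The study compared 3 clones from the central cornea with 3 from the conjunctiva of white domestic pigs, with 1 Affymetrix porcine array per clone and no treatment named in the labels. The labels give 1 culture protocol for all clones. The arrays ran on 2 fluidics stations, each with both tissues, and under 4 fluidics module numbers, none with both tissues. Numbers 2 and 3 occurred on both stations, and whether a number names the same module there is not given. Differences between module numbers and between tissues cannot be told apart. The labels give a distance of 6 mm from the limbus for the biopsies and name 2 animals but do not assign clones to them. The cells were cultured over a feeder of irradiated mouse 3T3-J2 fibroblasts, single cells were picked, and each clone was expanded from 1 cell, so a clone stands for 1 founder cell and not for the tissue as a whole. The arrays' run files carry the project name of a time course after irradiation, of which the labels say nothing. Values are log2 levels after the robust multi-array average (RMA), in which a step of 1 is a doubling. The comparison asks which of these genes differ between clones of the neighbouring epithelia, and how enzymes and inhibitors compare in each clone.

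Proteolysis around epithelial cells runs through a few linked systems. Matrix metalloproteinases (MMPs) cut collagens, laminins and other matrix proteins, and tissue inhibitors of metalloproteinases (TIMPs) bind them in a tight complex. ADAM proteases release growth factors and receptors from the cell surface, plasminogen activators make plasmin, kallikreins of stratified epithelia cut the junctions of shedding cells, and cathepsins degrade proteins in lysosomes. Most serpins trap serine proteases by a suicide mechanism. In the cornea and conjunctiva these systems are known for their part in wound closure and in the turnover of surface cells.

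The arrays were alike in overall signal, with medians between 4.40 and 4.48 and pairwise correlations across probe sets from 0.971 to 0.987. Of 28 keratinocyte markers 13 were measured, and 12 of these lay at or above the median level of all probe sets. So did 73.8% of all genes, which limits what this count says about cell identity. Among the 12 were the junction genes CDH1, DSP and PERP, while the integrin ITGA6 lay below that level. Most markers of other cells were dim: 1 of 11 leukocyte markers (AIF1), 3 of 10 endothelial, 3 of 7 melanocyte and 1 of 5 goblet markers reached that level. Fibroblast markers reached it for 8 of 16, with median levels from 4.53 to 4.84 in corneal and from 4.12 to 4.42 in conjunctival clones. The brightest of these were THY1, at 9.66 to 12.24, and COL1A2, at 6.40 to 7.81. The keratan sulphate proteoglycan LUM, a stromal marker, was the dimmest, between 2.82 and 2.95. Some markers of the other cell types were bright. The endothelial PECAM1 was at 7.11 to 8.22 and EGFL7 at a mean of 6.85, AIF1 was at 6.33 to 8.45, and the melanocyte marker GPNMB was at 4.61 to 8.48. In such bulk samples, fewer cells of a type and less RNA per cell cannot be told apart.

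Large differences in these genes lay between single clones, and none was called between the tissues. The range over the 6 clones was at least 2-fold for 23 of the 52 genes (44.2%), against 16.5% of all 6765 genes. A range of at least 4-fold was seen for 7 of them, MMP7, SERPINB11, KLK7, MMP1, CTSK, MMP3 and SERPINB2, against 2.96% of all genes. Among genes at or above the median level, which held 36 of the 52 members and 73.8% of all genes, the 2-fold count was 20 (55.6%) against 20.5%. The median spread within a tissue was 0.32 for the members and 0.22 for all genes (log2, SD). Without cornea 1, 2 or 3 the 2-fold count was 22, 22 and 23, against 14.2%, 13.1% and 14.0% of all genes. Without conjunctiva 1, 2 or 3 it was 22, 17 and 22, against 14.6%, 13.5% and 14.4%. It was 24 after median centring (16.9% of all genes) and 20 with the mean of a gene's probe sets (13.9%).

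**Figure D1:**
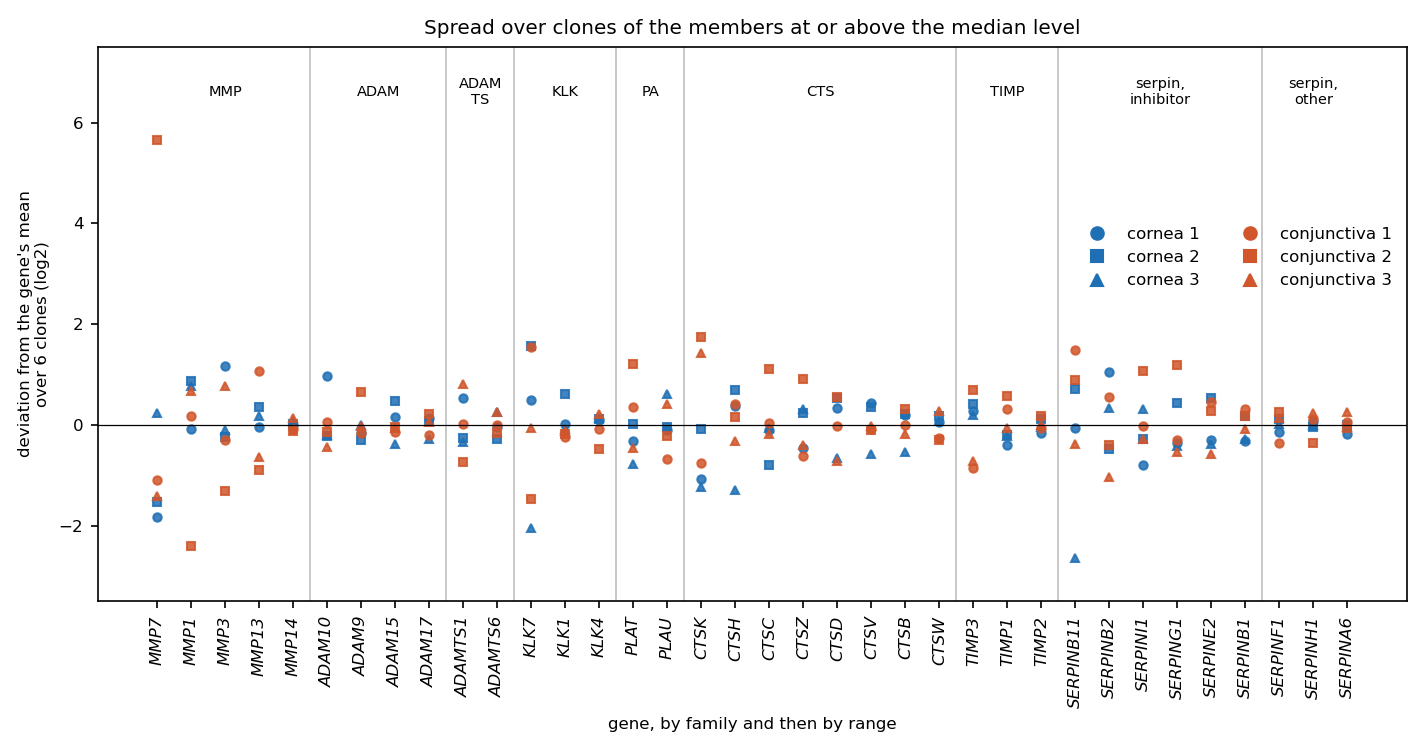
Deviation of each clone from the gene's own mean over the 6 clones (y axis, log2) for the 36 genes at or above the median level of all probe sets, grouped by family and then ordered by range (x axis; PA, plasminogen activators). Blue is cornea, orange is conjunctiva and the marker shape is the clone number. MMP7 in conjunctiva 2 lies far above every other point, and the lowest points are SERPINB11 and KLK7 in cornea 3 and MMP1 in conjunctiva 2.

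In the comparison of conjunctiva with cornea, 0 of the 52 genes passed an adjusted p of 0.05 by limma (0.0% of all probe sets and of all genes), and each member was at a limma adjusted p of 0.9999. At an unadjusted p under 0.05 the limma count was 2, ADAM28 and TIMP1, where 3.12% of all genes and 2.7% of all probe sets were so called. With the clone number as a block it was 6 (ADAM28, CTSK, PLAT, SERPINB11, SERPINB7 and TIMP1, all but SERPINB7 higher in conjunctiva), against 5.99%. Whether clones of the same number belong together is not established. The fitted difference was above 0, meaning higher in conjunctiva, for 29 members and below 0 for 23, with a median of 0.024, and 53.5% of all genes were above 0, with a median of 0.014. Values of the tissues did not overlap for TIMP1 and KLK1, 2 of 52, against 6.71% of all genes. TIMP1 was higher in conjunctiva (3.55% of all genes) and KLK1 in cornea (3.16%). The 95% confidence interval lay within a 2-fold difference for 31 members, against 89.3% of all genes. For the other 21, a 2-fold tissue difference was within the interval with 3 clones a tissue. Tissue means were at least 2-fold apart for 4 members (MMP7, CTSK, SERPINB11 and MMP1), against 0.887% of all genes. Without 1 clone the difference was -0.22 for MMP7 and -0.10 for MMP1 (without conjunctiva 2) and 0.34 for SERPINB11 (without cornea 3). For CTSK it stayed between 1.13 and 2.38 without any 1 clone.

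**Figure D2:**
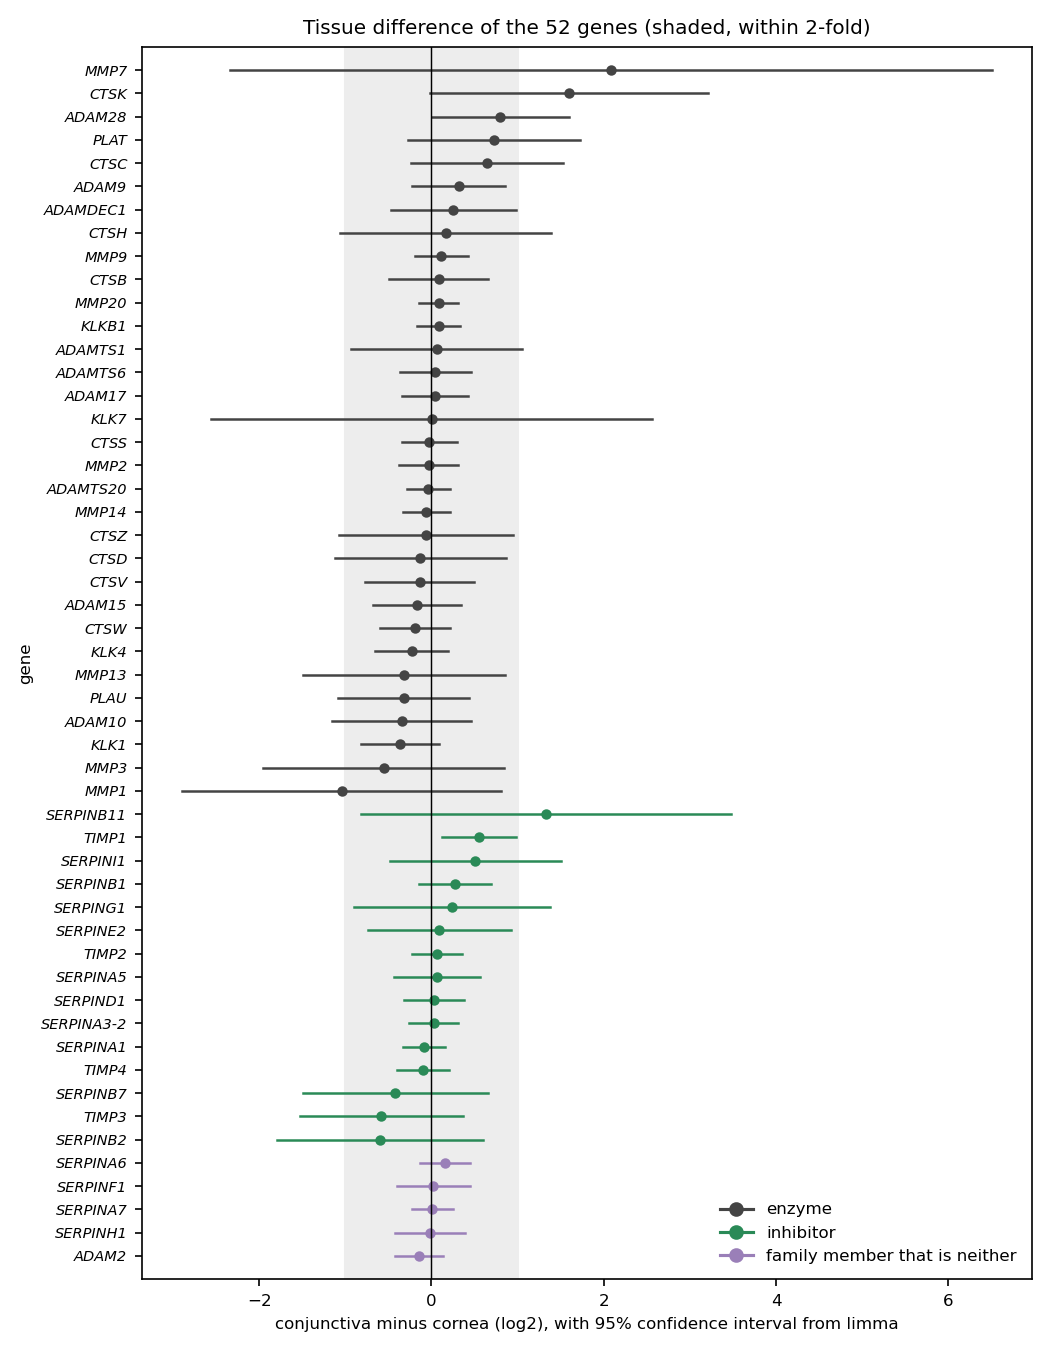
Conjunctiva minus cornea for each of the 52 genes (x axis, log2; points, limma estimates; lines, 95% confidence intervals; n = 3 clones per tissue), with enzymes above, inhibitors in the middle and the remaining family members below. The shaded band marks a difference of less than 2-fold. The intervals of MMP7 and KLK7 are the widest, and those of TIMP1 and ADAM28 are the only ones that leave out 0.

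MMP7 encodes matrilysin, a small MMP of glandular and wounded epithelia that lacks the haemopexin domain. Its levels were 4.17, 4.47 and 6.23 in cornea 1, 2 and 3, and 4.89, 11.64 and 4.57 in conjunctiva 1, 2 and 3 (log2). Conjunctiva 2 stood 7.07 above the median of the other 5 clones, a 134-fold distance. That was the largest upward distance of conjunctiva 2 over all 6765 genes. Cornea 3 was the next highest clone, and the others lay close together and near the array medians. The tissue means were 4.95 ± 1.11 in cornea and 7.04 ± 3.99 in conjunctiva (SD, n = 3), a difference of 2.08 (SE 1.85) that turned to -0.22 without conjunctiva 2. Some marker genes, picked after their values had been seen, were also highest in these 2 clones. The keratin KRT19 was at 10.44 in conjunctiva 2 and 10.36 in cornea 3, against 7.01 to 9.36 in the others. KRT8 was highest in cornea 2 (10.94) and KRT18 in conjunctiva 2 (8.61). In cornea 3 these keratins were at 10.40 and 7.54, below cornea 1 and 2. The macrophage-associated AIF1 was at 8.33 in conjunctiva 2 and 8.45 in cornea 3, against 6.33 to 7.67 in the others. The other measured leukocyte markers were dim, with mean levels from 3.44 to 4.33. FOXA1, from the goblet list, was at 6.18 in conjunctiva 2 and 5.66 in cornea 3, against 3.10 to 3.74 in the others. The other 4 goblet genes (TFF1, TFF3, FCGBP and CLCA1) lay between 3.06 and 5.44 in all clones. The part of these marker genes in the MMP7 values was not tested.

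Conjunctiva 2 was also the clone with the least collagenase signal. MMP1, the interstitial collagenase that keratinocytes make as they migrate over collagen, was at 11.57, 12.52 and 12.41 in cornea 1 to 3 and at 11.82, 9.25 and 12.32 in conjunctiva 1 to 3. The other 5 clones lay within 1 log2 step of each other, and conjunctiva 2 was 8.38-fold below their median. Only 4 of 6765 genes lay farther below the other clones in conjunctiva 2. The difference of -1.04 (SE 0.78) between the tissues was -0.10 without it.

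The stromelysin MMP3, which cuts proteoglycans and activates collagenases, was at 6.27, 4.86 and 4.99 in cornea and 4.80, 3.79 and 5.87 in conjunctiva, in clone order. It was lowest in conjunctiva 2 and highest in cornea 1, and the tissues overlapped. The other 3 MMP3 probe sets were dimmer (mean levels 3.43 to 4.20) and differed by -0.075 to -0.0092 between the tissues. MMP13, a second collagenase, was at 5.84, 6.23 and 6.05 in cornea and 6.94, 4.99 and 5.23 in conjunctiva. The corneal clones lay close together, while conjunctiva 1 was the highest of all and conjunctiva 2 the lowest. Conjunctiva 2 thus held the lowest values of MMP1, MMP3 and MMP13 and the highest of MMP7.

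The other MMPs varied little. MMP14, the membrane-type enzyme that activates pro-MMP2, was at 6.25 to 6.52 in all clones, a difference of -0.058 (SE 0.11, 95% interval -0.33 to 0.21). The gelatinases MMP2 and MMP9 and the enamel protease MMP20 lay below the median level of all probe sets in their mean, at 3.54, 4.12 and 2.89, with ranges of 0.48, 0.36 and 0.19. Differences of such dim probe sets may be understated.

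**Figure D3:**
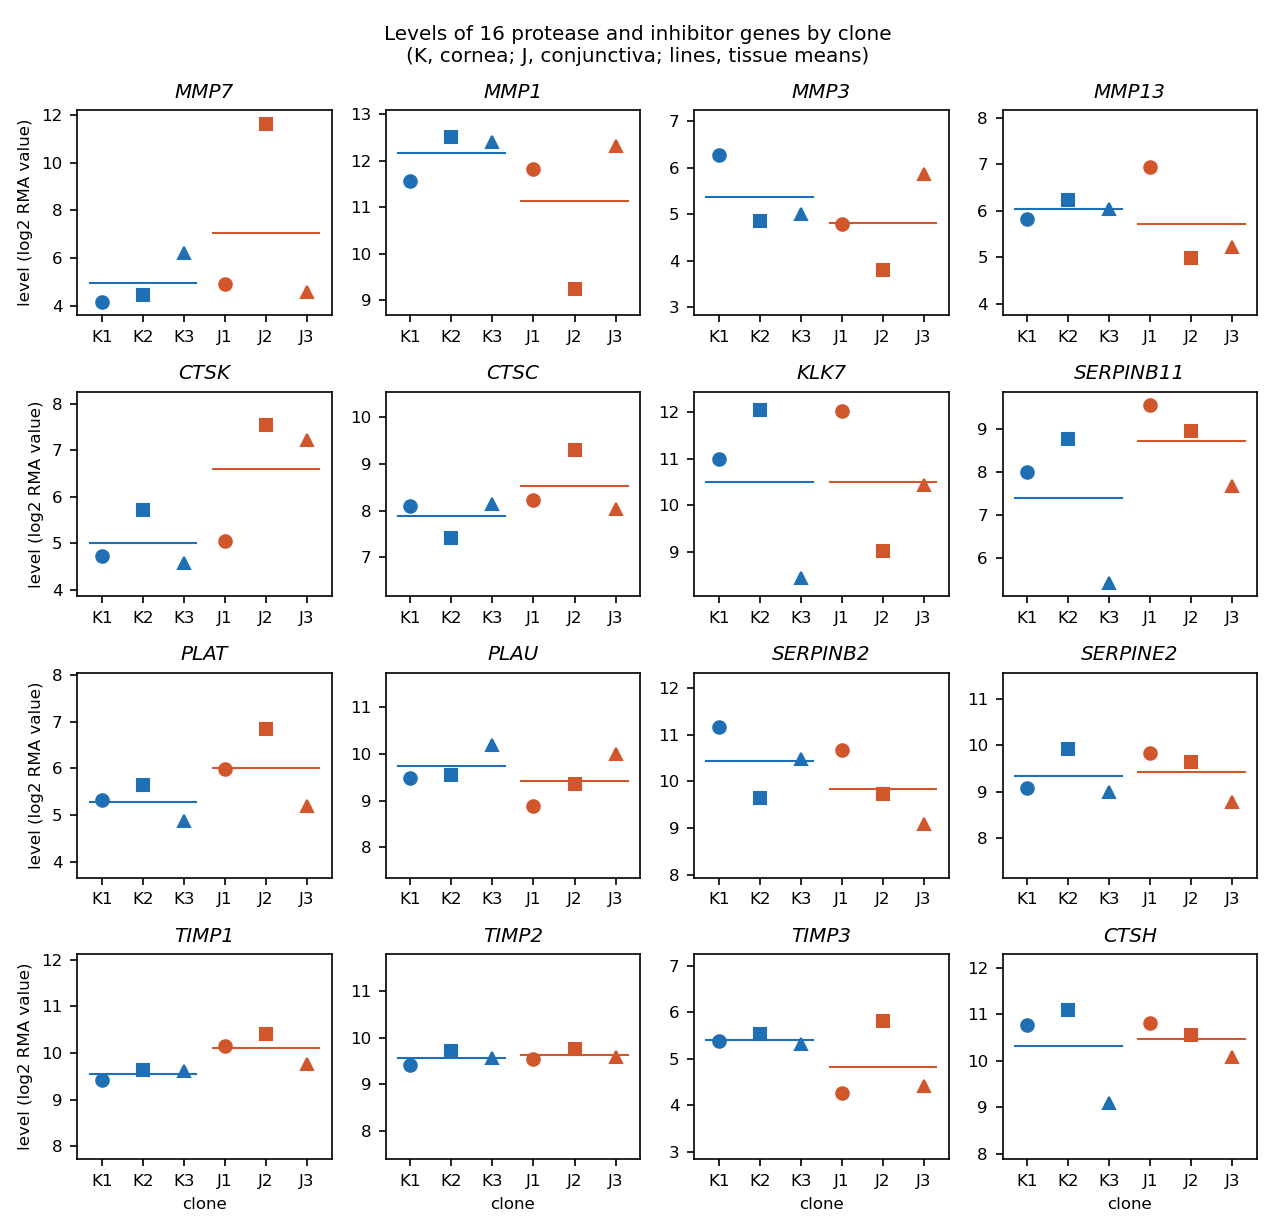
Levels (y axes, log2 RMA values) of 16 genes in the 6 clones (x axes; K1 to K3, cornea 1 to 3 in blue; J1 to J3, conjunctiva 1 to 3 in orange), with horizontal lines at the tissue means. Each panel has its own y axis, so heights are to be compared within a gene only. TIMP1 is the gene shown whose conjunctival values all lie above the corneal ones (9.76 to 10.41 against 9.43 to 9.63).

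The 4 TIMPs had a median range over clones of 0.68, beside 1.05 for the 32 enzymes, and TIMP1 was the member with the smallest p. TIMP1 was at 9.43, 9.63 and 9.61 in corneal clones 1 to 3 and at 10.15, 10.41 and 9.76 in conjunctival clones 1 to 3. All conjunctival values lay above all corneal ones, with conjunctiva 3 closest. The difference was 0.55 (SE 0.18, 95% interval 0.12 to 0.98, limma adjusted p = 0.9999), or 1.46-fold. It was 0.40 without conjunctiva 2, and 0.66 and 0.53 among the 3 arrays run on each of the fluidics stations 1 and 2.

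TIMP2, which also serves as the bridge between MMP14 and pro-MMP2, was at 9.42 to 9.76 in all clones, a difference of 0.069 (95% interval -0.22 to 0.36). Its dimmer probe set (mean level 6.93) ran from 6.46 in cornea 3 to 7.67 in conjunctiva 2. That was a 2.33-fold range, with a difference of 0.26. TIMP3, which binds to the matrix and inhibits ADAM17 as well, was at 5.39, 5.53 and 5.32 in cornea and 4.27, 5.82 and 4.41 in conjunctiva. Conjunctiva 1 and 3 were low and conjunctiva 2 was the highest of all. A second TIMP3 probe set (mean level 5.04) showed the same picture, with a difference of -0.67 beside -0.58 for the one used. Without conjunctiva 2 the difference was -1.08, and without conjunctiva 1 it was -0.30. TIMP4 was dim, at 3.52 in the mean.

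Among the ADAM proteases, ADAM28 gave the other unadjusted p under 0.05. It was at 3.26, 3.68 and 3.23 in cornea and 3.97, 4.94 and 3.66 in conjunctiva, below the median level except in conjunctiva 2. The tissues overlapped by a narrow margin, with conjunctiva 3 just under cornea 2. Its difference of 0.80 (SE 0.33, 95% interval 0.011 to 1.59, limma adjusted p = 0.9999) was 0.43 without conjunctiva 2. ADAM9 was likewise highest in conjunctiva 2, at 7.86 against 6.90 to 7.20 in the other clones, and 1 of its 3 other probe sets had the opposite sign. In that probe set (mean level 6.98) cornea 1 was highest, at 8.02, and conjunctiva 2 was at 7.12. ADAM10, the sheddase that cleaves Notch and E-cadherin, was at 7.09 in cornea 1 and between 5.69 and 6.19 elsewhere, and its difference of -0.35 was 0.046 without cornea 1.

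ADAM17, which releases EGF receptor ligands and tumour necrosis factor, was at 4.70 to 5.18 in all clones, a difference of 0.041 (SE 0.16). All 3 of its other probe sets had the opposite sign, and it turned to -0.16 as a mean over probe sets and to -0.052 with the fluidics station as a block. In 1 of those probe sets (mean level 4.22) cornea 1 was at 5.39 and the other clones at 3.68 to 4.18. ADAM15 lay between 5.32 and 6.18 and ADAMDEC1 between 3.37 and 4.47, with no separation of the tissues. ADAMTS1, an aggrecanase, was highest in conjunctiva 3 and cornea 1 (9.69 and 9.40) and lowest in conjunctiva 2 (8.14). In its other probe set (mean level 8.68) the same clones were highest, but cornea 3 was lowest (7.59) and conjunctiva 2 was at 8.29. The difference was 0.42 there and 0.061 in the one used. ADAMTS6 and ADAMTS20 ranged over 0.52 and 0.23.

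Plasminogen activation was represented by both activators and by a few serpins, while the receptor PLAUR was not analysed here. PLAU, the urokinase that keratinocytes use in wound closure, was at 9.48, 9.54 and 10.19 in cornea and 8.89, 9.36 and 9.996 in conjunctiva. In each tissue clone 3 was the highest and clone 1 the lowest, and the difference of -0.32 (SE 0.32) was -0.058 without conjunctiva 1. PLAT, the tissue-type activator, was at 5.33, 5.65 and 4.86 in cornea and 5.99, 6.84 and 5.19 in conjunctiva. In each tissue clone 2 was the highest and clone 3 the lowest. Its difference of 0.73 (SE 0.42, and SE 0.19 with the clone number as a block) was 0.31 without conjunctiva 2.

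SERPINB2, an inhibitor of both activators found in stratifying keratinocytes, was at 11.17, 9.65 and 10.47 in cornea and 10.68, 9.73 and 9.09 in conjunctiva. Clone 1 was the highest in each tissue, the difference was -0.60 (SE 0.50), and it was -0.23 without cornea 1 or without conjunctiva 3. SERPINE2, which blocks thrombin and urokinase, ranged from 8.79 to 9.91 with a difference of 0.092 (SE 0.35), and its sign turned in 4 of the 6 fits without 1 clone. SERPINI1, which targets tissue-type activator, was highest in conjunctiva 2 (8.06) and between 6.19 and 7.30 in the rest, and its difference of 0.51 (SE 0.41) was 0.10 without that clone. Among cofactors, the plasminogen-binding pair ANXA2 and S100A10 was near the top of the scale in all clones, at 13.13 to 13.41 and 12.96 to 13.26.

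KLK7 and SERPINB11 differed widely between clones of the same tissue. KLK7, a chymotryptic kallikrein that cuts corneodesmosomes in shedding epithelia, was at 10.99, 12.05 and 8.44 in cornea 1 to 3 and at 12.03, 9.02 and 10.44 in conjunctiva 1 to 3. Cornea 2 and conjunctiva 1 were the highest and cornea 3 was the lowest, a range of 3.61 or 12.2-fold. The tissue means were 10.49 ± 1.86 and 10.49 ± 1.51 (SD, n = 3). The 95% interval of the difference, -2.56 to 2.56, leaves a tissue difference of several fold in either direction possible.

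SERPINB11, an intracellular serpin of epithelia, was at 8.01, 8.77 and 5.42 in cornea and 9.56, 8.95 and 7.68 in conjunctiva. Clone 3 was the lowest in each tissue, each conjunctival clone lay above the corneal clone of the same number, and cornea 3 was 10.2-fold below the median of the others. Its difference of 1.33 (SE 0.90, and SE 0.39 with the clone number as a block) was 0.34 without cornea 3. Of the inhibitors outside the families, SPINK5, which restrains epithelial kallikreins, was at 8.39, 9.70 and 6.35 in cornea and 9.61, 8.05 and 6.54 in conjunctiva, and SLPI, a leukocyte protease inhibitor of mucosal surfaces, at 9.26, 11.67 and 8.51 and at 12.16, 10.76 and 8.64. In KLK7, SERPINB11, SPINK5 and SLPI alike, cornea 3 was the lowest clone, and cornea 2 and conjunctiva 1 lay above both clones numbered 3. SPINK5 and this order of clones were chosen after the values had been seen. The order held for 6 of 52 members (11.5%), for 6 of 16 further inhibitors (also CSTB, CST3, SPINT2 and CAST) and for 8.69% of all genes. These counts include KLK7, SERPINB11, SPINK5 and SLPI, from which the order was read, so they are raised by the choice. The other 10 further inhibitors, TFPI2 and CST6 among them, had another order.

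The other kallikreins were less variable. KLK1, tissue kallikrein, was at 5.78, 6.35 and 5.67 in cornea and 5.51, 5.56 and 5.64 in conjunctiva. All corneal values were above all conjunctival ones, with cornea 3 and conjunctiva 3 the closest. The difference of -0.36 (SE 0.19, limma adjusted p = 0.9999) was -0.15 without cornea 2. KLK4 differed by -0.23 (SE 0.18, and -0.049 without conjunctiva 2), and KLKB1 was dim at 3.08. Other kallikreins of stratified epithelia, such as KLK5 and KLK8, were not analysed here.

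The 9 cathepsins had a median range over clones of 1.28, beside 0.91 for all 52 members, and CTSK had the widest. CTSK, a collagen-degrading cysteine protease best known from osteoclasts and also made by fibroblasts, was at 4.72, 5.72 and 4.57 in cornea and 5.04, 7.54 and 7.22 in conjunctiva. Conjunctiva 2 and 3 stood well above the rest, and conjunctiva 1 lay among the corneal clones. In conjunctiva 2 CTSK was 5.66-fold above the median of the other clones, and in conjunctiva 3 it was 4.53-fold above, where 1 of 6765 genes lay farther above the other clones. The difference was 1.60 (SE 0.67, 95% interval -0.012 to 3.21, limma adjusted p = 0.9999). It ran from 1.13 without conjunctiva 2 to 2.38 without conjunctiva 1, and was 2.66 within station 1, which held both high clones, and -0.10 within station 2.

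For the 16 measured fibroblast markers, the median deviation from each gene's own mean was -0.041 in conjunctiva 2 and -0.042 in conjunctiva 3. It was 0.093, -0.026 and 0.15 in cornea 1 to 3 and -0.17 in conjunctiva 1. Between the tissues 13 of the 16 were lower in conjunctiva (median difference -0.13), where 53.5% of all genes were higher. Only 8 of the 16 lay at or above the median level, and the sign of a dim marker says little. DCN was highest in conjunctiva 2 (8.48) but at 6.19 in conjunctiva 3. COL1A2, COL3A1 and LUM were at 6.83, 4.21 and 2.82 in conjunctiva 2, within or below their range in cornea. The fibroblast-associated surface gene THY1 was at 12.24 in conjunctiva 2 and 9.98 in conjunctiva 3, between 9.66 and 11.23 in cornea. The part of other cells in the CTSK values was not tested.

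CTSC, the dipeptidyl peptidase that activates granule proteases, had a difference of 0.64 (SE 0.37), with conjunctiva 2 at 9.31 and the other clones at 7.40 to 8.23. All 4 of its probe sets had the same sign, with the 3 others at 0.59 to 0.77, and without conjunctiva 2 the difference was 0.25. CTSZ was also highest in conjunctiva 2 (6.99). CTSH, an aminopeptidase, was lowest in cornea 3, at 9.09 against 10.07 to 11.08 elsewhere. CTSD, the main aspartic protease of lysosomes, was low in both clones numbered 3, at 7.48 in cornea and 7.43 in conjunctiva, and between 8.12 and 8.71 in the others. CTSB and CTSV stayed high throughout, at 10.19 to 11.05 and 11.08 to 12.07, with differences of 0.087 (SE 0.24) and -0.14 (SE 0.26). CTSV and its close relative CTSL may share probe signal, and CTSL was not analysed here. CTSS and CTSW, cathepsins of immune cells, were at mean levels of 3.52 and 4.46.

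Among the remaining serpins, SERPINB1, an inhibitor of neutrophil elastase, was at 8.57 to 9.06 in cornea and 8.80 to 9.19 in conjunctiva, a difference of 0.27 (SE 0.18) whose sign was opposite in both its dimmer probe sets. SERPING1, the inhibitor of the first complement component, was at 6.97 in conjunctiva 2 and 6.19 in cornea 2, and between 5.23 and 5.47 in the others. SERPINB7 was at 5.02 in cornea 2, 4.33 in conjunctiva 2 and between 3.25 and 3.90 elsewhere. For both genes, clone 2 was the highest in each tissue. The liver serpins SERPINA1, SERPINA3-2, SERPINA5 and SERPIND1 had mean levels of 3.26 to 4.14 and differed by -0.085 to 0.062. The 5 members that are neither enzyme nor inhibitor had ranges under 2-fold and differences of -0.14 to 0.16.

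Set beside all genes, conjunctiva 2 was the clone in which these genes stood apart most often. A level at least 2-fold from the median of the other 5 clones was seen there for 12 of 52 genes (23.1%), against 2.85% of all genes. Higher were MMP7, CTSK, SERPING1, PLAT, SERPINI1, CTSZ, ADAM28 and CTSC, and lower were MMP1, MMP3, MMP13 and KLK7. In cornea 3 the count was 6 (11.5% against 2.68%), in conjunctiva 3 also 6 (11.5% against 1.94%), in cornea 1 and conjunctiva 1 it was 4 each (7.69% against 1.95% and 1.36%), and in cornea 2 it was 2 (3.85% against 2.96%). Over all genes, the share that stood apart was 2.96% in cornea 2, above that of conjunctiva 2.

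**Figure D4:**
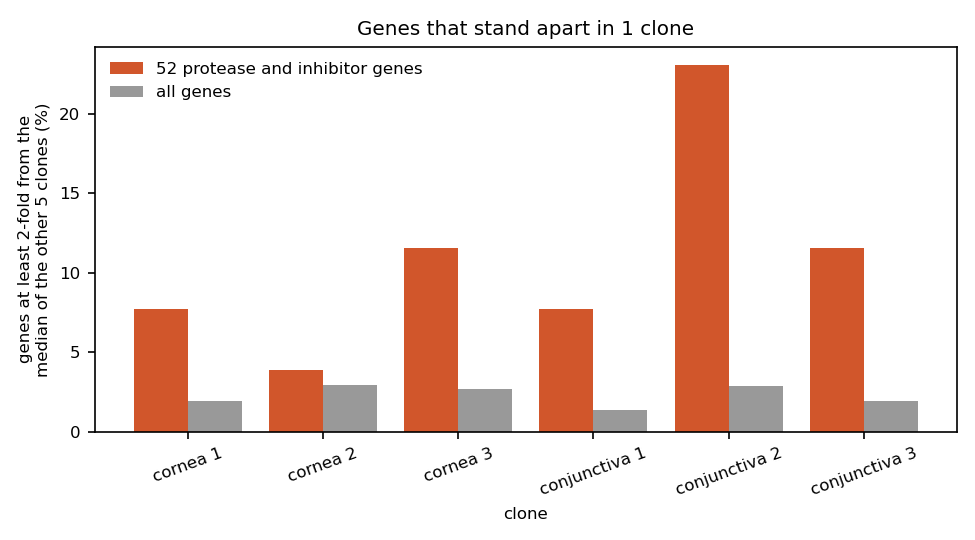
Share of genes (y axis, percent) whose level lay at least 2-fold above or below the median of the other 5 clones, for each clone (x axis), among the 52 protease and inhibitor genes (orange) and among all 6765 genes (grey). The orange bar of conjunctiva 2 reaches 23.1%, while the grey bars stay between 1.36% and 2.96%.

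Enzymes and inhibitors were compared through the deviation of each gene from its own mean, because levels of different probe sets are not on one scale. Conjunctiva exceeded cornea in 16 of the 32 enzymes, whose median difference was -0.011. Among the 15 inhibitors it did so in 10, and the median was 0.062, so the enzyme median minus the inhibitor median was -0.074. Per clone, this balance was 0.074, -0.063 and 0.0088 in cornea 1 to 3 and -0.067, -0.068 and 0.030 in conjunctiva 1 to 3. The tissues overlapped, and every value was small.

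The balance was wider among members at or above the median level, 24 enzymes and 9 inhibitors. There the median difference was -0.061 for enzymes, with 11 of 24 higher in conjunctiva, and 0.24 for inhibitors, with 7 of 9 higher. All genes of such level had a median of 0.037, and 2905 of these 4993 genes were higher in conjunctiva. The enzyme median minus the inhibitor median was 0.34, -0.089 and 0.13 in cornea 1 to 3 and -0.39, -0.70 and 0.34 in conjunctiva 1 to 3. Means were 0.13 ± 0.21 and -0.25 ± 0.53 (SD, n = 3). Conjunctiva 1 and 2 leaned to inhibitors, while conjunctiva 3 lay with cornea 1 at the other end, so the tissues overlapped here too. The inhibitor median depended on which serpins were counted. With all serpins and TIMPs it was 0.12 at this level, with 9 of 12 higher in conjunctiva, and 0.029 over all levels.

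**Figure D5:**
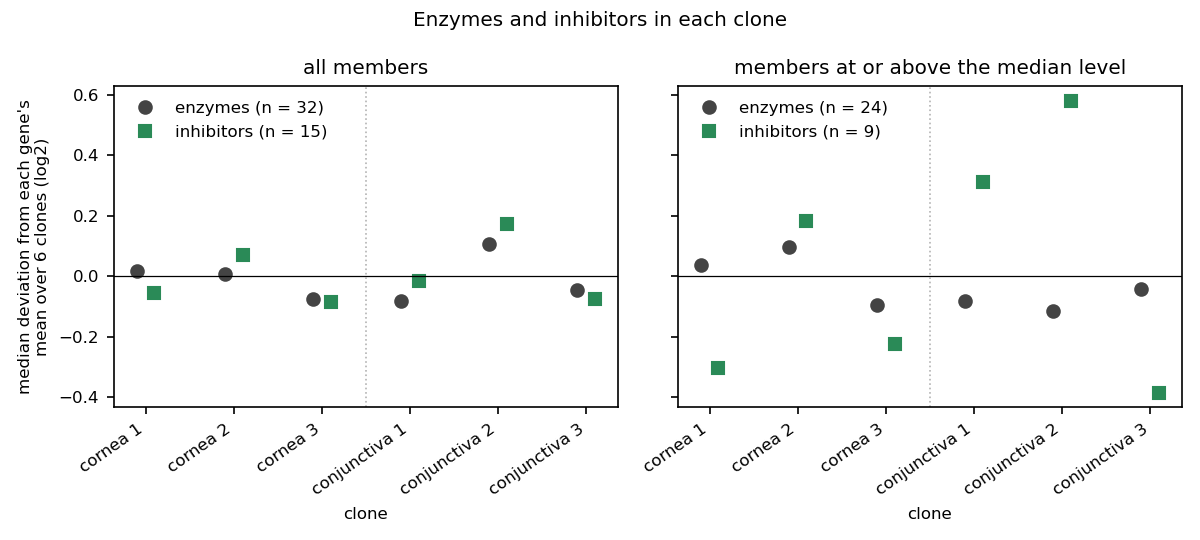
Median deviation of enzymes (dark circles) and inhibitors (green squares) from each gene's mean over the 6 clones (y axis, log2) in each clone (x axis), for all members on the left and for members at or above the median level on the right. On the right the inhibitors of conjunctiva 2 lie at 0.58 and its enzymes at -0.11.

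For 6 pairs of an enzyme and a known inhibitor, chosen after the values had been seen, the log2 enzyme deviation minus that of the inhibitor was taken in each clone. MMP1 against TIMP1 stood at 0.33, 1.07 and 0.99 in cornea and -0.15, -2.98 and 0.74 in conjunctiva, lowest in conjunctiva 2. It was lower in conjunctiva for each of the 3 clone numbers, and the tissue means differed by -1.59. MMP7 against TIMP1 was at 5.07 in conjunctiva 2 and between -1.42 and 0.45 elsewhere. PLAU against SERPINB2 ran from -1.23 in conjunctiva 1 to 1.46 in conjunctiva 3, with clone 1 the lowest in each tissue. PLAT against SERPINE2 was at 0.93 in conjunctiva 2 and between -0.53 and 0.13 elsewhere, and ADAM17 against TIMP3 at 0.66 and 0.77 in conjunctiva 1 and 3 and between -0.49 and -0.13 elsewhere. MMP14 against TIMP2 was the steadiest, with a range of 0.47 by the brighter TIMP2 probe set. The dimmer TIMP2 probe set, which was not used here, itself ranged over 1.22. No test is given for these pairs, since an exact permutation of 3 against 3 cannot go below p = 0.1.

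Other genes of the proteolysis network, from lists that hold no member, also gave 0 calls over all probe sets by limma. Over all genes, 53.5% were higher in conjunctiva, 3.12% reached an unadjusted p under 0.05 and 6.71% did not overlap, which is the background to these lists. Conjunctiva was the higher tissue for 12 of 16 further inhibitors (median difference 0.068), and 2 reached an unadjusted p under 0.05 by limma. These were TFPI2, a Kunitz inhibitor of plasmin in the matrix, at 8.77, 7.87 and 7.64 in cornea and 9.13, 9.06 and 10.33 in conjunctiva (difference 1.42, SE 0.42), and the cystatin CST6. The tissues did not overlap for either, and CST6 was lower in conjunctiva (difference -2.53, SE 0.54). The 18 further enzymes were evenly divided, 9 above and 9 below 0 (median 0.0055), with 1 at an unadjusted p under 0.05. That was the serine protease PRSS23, at 8.38, 8.66 and 8.09 in cornea and 9.18, 9.63 and 8.71 in conjunctiva (0.79, SE 0.26), without overlap. The membrane proteases ST14 and ANPEP differed by 0.53 (SE 0.23) and -0.96 (SE 0.43), and ANPEP, also without overlap, by -0.43 without cornea 2. The Kunitz inhibitors SPINT1 and SPINT2 differed by 0.31 and 0.019, and by -0.038 and -0.16 without conjunctiva 2.

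Of 9 receptors and cofactors 7 were lower in conjunctiva (median -0.12), and of 12 matrix and junction substrates 7 were lower (median -0.030), with 0 and 0 at an unadjusted p under 0.05 by limma. Fibronectin, FN1, a substrate of MMP7 chosen after its values had been seen, was highest in the same clones as MMP7. It was at 8.27 in conjunctiva 2 and 6.92 in cornea 3, and between 4.22 and 5.07 in the others. The junction protein gene CDH1, whose product several of these proteases cut, ranged from 10.58 to 11.57 over the clones.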

How the data were processed

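Total RNA of each of the 6 clones went through 1 amplification cycle before labelling, per the labels' protocols. The deposited table holds log2 values that the authors made with RMA, as the submitters' processing notes name it, a method that corrects background, equalises the distributions of probe signal and summarises each probe set. The RMA version and the arrays normalised together are not given in the sources used here. Equal distributions hide changes in total RNA per cell, and low values are compressed. Precision is limited by the number of arrays.

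Without 124 control probe sets, 23999 entered the test in limma 3.58.1 under R 4.3.3 (functions lmFit and eBayes, conjunctiva minus cornea, two-sided, Benjamini-Hochberg over all tested probe sets, threshold 0.05), without a filter on low values. The fit was tested on simulated data with the same spread for all probe sets, smaller than the median spread of the members within a tissue. That test does not show which changes 3 clones a tissue could detect in these genes. Gene symbols were those of the platform annotation, where 10069 probe sets had 1 symbol. All 52 members matched RefSeq gene IDs and 0 symbols changed. A probe set of SERPINA11 with several gene IDs was not used. The members had 76 probe sets, and 13 genes had more than 1. Members, lists and tests were chosen with earlier results of these data known. Named were 34 fixed members, up to 6 per direction by the smallest p and the 6 of the largest range, and by the same p up to 3 genes of each further list.

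Clones numbered alike in the labels deviated together from their tissue means (r = 0.354, 0.169 and 0.349 across probe sets), so the clone number was also fitted as a block. Clones numbered differently were not compared in this way, so a pairing of clones by number is not established. Nothing says that clones came from separate animals, and with 2 animals named some share one. So p-values speak of the spread between these 6 samples alone, which may be technical in part. Fluidics station 1 held cornea 1, conjunctiva 2 and conjunctiva 3. Alternatives were the block, the station, array median centring, a filter on level, limma's trend and robust options, other probe set rules and leaving out each clone. The fits within a station, with the fluidics module number as a random block over both stations, and of the range over clones were chosen after seeing the data.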

Additional observations from a re-analysis of the deposited data

How the results depend on the processing

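The count of protease and inhibitor genes past the threshold was 0 in all 16 alternatives, without 1 clone included. Over all probe sets it was 0 except with limma's trend and robust options (2) and with 1 probe set per gene tested (1), and 0 to 0 without 1 clone. At an unadjusted p under 0.05 by limma, the count of 2 members was 6 with the clone number as a block (replicate block), 1 when the station was the block, 4 in each of the stations 1 and 2 alone and 0 to 5 without 1 clone. Among probe sets at or above the median level the inhibitor median was 0.24 and the enzyme minus inhibitor median -0.30. Within station 1 the latter was -0.18, within station 2 the inhibitor median was -0.076 and the balance 0.073, and without 1 clone the balance ran from -0.070 to 0.043. The count of genes with a 2-fold range was 24 after median centring, 20 as a mean over probe sets and 17 to 23 without 1 clone.

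None of the 39 named genes passed in an alternative, and 547 of their 617 values kept their sign. The sign turned after median centring for CTSS (0.0015) and SERPINH1 (0.010), with the module block for KLK7 (-0.078), as a mean over probe sets for ADAM17 (-0.16), and with the station block for ADAM17 (-0.052), ADAMTS1 (-0.083), MMP13 (0.037) and SERPINF1 (-0.034). Within station 1 it turned for ADAM17 (-0.011), ADAMTS1 (-0.48), CTSB (-0.13), CTSH (-0.45), CTSZ (0.71), KLK7 (-1.27), MMP14 (0.0075), MMP2 (0.069) and PLAU (0.20). Within station 2 it turned for ADAM10 (0.28), ADAM17 (-0.093), ADAM9 (-0.0070), CTSD (0.047), CTSK (-0.10), CTSS (0.13), CTSV (0.022), MMP13 (0.80), MMP7 (-0.45), MMP9 (-0.11), SERPINB2 (0.62), SERPINF1 (-0.41), SERPING1 (-0.30), SERPINH1 (0.14) and TIMP2 (-0.091). Within each station 1 tissue had a single array (cornea 1 or conjunctiva 1), assumed to vary like the others, so these counts and values rest on 1 array of a tissue, and the cause was not tested.

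Without 1 clone, the sign turned in at least 1 fit for 20 genes, with these ranges: ADAM10 -0.55 to 0.046, ADAM15 -0.40 to 0.030, ADAM17 -0.087 to 0.15, ADAMTS1 -0.33 to 0.44, CTSB -0.16 to 0.21, CTSD -0.49 to 0.20, CTSH -0.44 to 0.55, CTSS -0.087 to 0.097, CTSV -0.46 to 0.040, CTSZ -0.54 to 0.23, KLK7 -1.03 to 0.78, MMP13 -0.93 to 0.049, MMP2 -0.16 to 0.081, MMP7 -0.22 to 3.31, SERPINE2 -0.11 to 0.41, SERPINF1 -0.098 to 0.20, SERPING1 -0.30 to 0.57, SERPINH1 -0.13 to 0.16, TIMP2 -5.7e-05 to 0.14 and TIMP4 -0.19 to 0.0022. Signal over background was not measured on these arrays, so dim values set no lower limit on a level.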
